A study of Mus musculus with 6 samples.

Results

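The atrial expression of 9 genes of autonomic receptor signaling was compared between mice fed a high-fat diet (HFD) and mice fed a control diet. The 9 genes were chosen by name from the 43432 genes of the deposited table, and each was found in exactly 1 row. They encode the receptors Adrb1 and Adrb3 (beta-adrenergic), Adra1a and Adra1b (alpha1-adrenergic) and Chrm2 (muscarinic), the kinases Adrbk1 and Grk5, and the arrestins Arrb1 and Arrb2. Adrbk1 is the older name of Grk2. The RNA came from right and left atrial tissue of wild-type C57/Bl6J mice. They started their diet at 6 weeks of age and stayed on it for 10 weeks. There were 3 samples per diet, each called a mouse here. The labels name no transgene or drug, and diet was the only difference they give between the groups.

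The sample titles give the diets used here, and they match the names of the columns in the deposited table. A second field, for treatment, contradicts the titles in each of the 6 samples by naming the other diet. If it were right, every direction given here would reverse.

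Norepinephrine from sympathetic nerves acts on adrenergic receptors, and acetylcholine from vagal nerves acts on muscarinic receptors. In the atrium the beta-adrenergic arm raises cAMP, heart rate and force through Gs, while the M2 muscarinic receptor encoded by Chrm2 couples to Gi and opens an inward rectifier potassium channel that slows the sinus node. An active receptor is phosphorylated by a G protein-coupled receptor kinase (GRK) and then bound by a beta-arrestin, which uncouples it from its G protein and carries it into the cell. GRKs and arrestins therefore set how long a receptor signals.

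Of the 9 genes, Grk5 rose in HFD atria (1.59-fold, 95% interval 1.34 to 1.90) and was the 1 member with an adjusted p under 0.05 in limma. None of the 9 passed in the lower direction. Over all 15275 genes tested, 0.746% passed in either direction (0.484% higher and 0.262% lower in HFD). With edgeR the same gene passed alone (0.57% of all genes passed, 0.373% higher), and with DESeq2 Grk5 and Adrb3 passed, both higher (3.34% of all genes passed, 2.07% higher). Before adjustment, limma gave 3 members (Grk5, Arrb1 and Adrb3) a p under 0.05 with a higher level in HFD, against 6.66% of all genes tested, and 1 (Adrb1) with a lower level, against 5.55%, or 4 of 9 against 12.2% in either direction. The 2 groups of 3 mice did not overlap for 3 members, namely Grk5 and Arrb1 (HFD above, as for 8.86% of all genes tested) and Adrb1 (HFD below, as for 9.17%), against 18.0% in either direction. The log2 fold change was above 0 for 7 of the 9 members, with a median of 0.14, against 50.8% of all genes tested and a median of 0.005.

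Sequences bear on how well these paralogs can be told apart, since reads were 50 bases long and were kept when they mapped uniquely. The longest stretch that each pair of related transcripts shares without a mismatch is given for the 4 pairs on which the results turn, from GENCODE M21 transcripts of GRCm38, 5′ to 3′, on the strand of the transcript.
Adrb1 and Adrb3, 30 bases: tgctggctgcccttcttcctggccaacgtg
Adrbk1 and Adrbk2, 30 bases: agctacctgatggccatggagaagagcaag
Grk5 and Grk6, 20 bases: caaccagtgaccaaaaacac
Arrb1 and Arrb2, 18 bases: cctaatgcaccccaagcc
All 4 runs lie in coding sequence, and none is as long as a read. The run shared by Chrm2 and Chrm4 was 23 bases, that of Adra1b and Adra1d 20 bases, that of Grk5 and Grk4 17 bases, and that of Adra1a and Adra1b 15 bases.

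RefSeq promoter windows (GRCm38.p6, 250 bases before to 50 bases after the start of transcription) were available for 4 of the 9 members. They are shown for the 1 gene that rose and for the receptor gene with the lowest unadjusted p, with CG dinucleotides in capitals.
Grk5, chr19:60889499-60889798, plus strand: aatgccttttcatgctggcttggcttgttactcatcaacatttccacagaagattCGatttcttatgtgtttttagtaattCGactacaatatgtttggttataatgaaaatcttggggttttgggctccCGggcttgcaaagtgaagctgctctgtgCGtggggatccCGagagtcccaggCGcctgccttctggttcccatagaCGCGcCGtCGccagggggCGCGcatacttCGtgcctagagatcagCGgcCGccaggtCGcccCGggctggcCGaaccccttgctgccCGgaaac
Adrb1, chr19:56721867-56722166, plus strand: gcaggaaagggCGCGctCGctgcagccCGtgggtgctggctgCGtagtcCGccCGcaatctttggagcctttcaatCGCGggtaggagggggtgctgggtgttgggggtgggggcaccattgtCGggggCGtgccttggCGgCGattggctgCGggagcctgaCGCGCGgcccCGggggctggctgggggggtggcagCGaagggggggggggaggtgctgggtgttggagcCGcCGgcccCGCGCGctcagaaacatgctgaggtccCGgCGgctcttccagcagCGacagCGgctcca
The Grk5 window held 19 CG dinucleotides and the Adrb1 window 28, against a median of 7 over 32851 promoter windows. This placed them at the 71.9 and 85.8 percentile of CG number. The 5 letters TGACG, the core of a cAMP response element, searched on both strands, were found 1 time in the Adrb1 window and 0 times in the Grk5 window, against 20.8% of all windows with a match. The full palindrome TGACGTCA, which contains TGACG, was in neither window and in 1.79% of all. TGTTCT, a glucocorticoid response element half-site, was in neither window and in 19.0% of all. A match describes these letters in these windows and is not a measured binding site. The Adrb1 window ends at 56722166, before the start of the gene in GENCODE M21 (56722199) and in the deposited table (56722372). Its counts thus depend on the RefSeq start.

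Levels can be compared between genes only per length, so each gene's normalized count was divided by its exon length in kilobases. Normalized counts are the authors' read counts divided by 1 size factor per sample. In HFD atria the order of the mean levels was Chrm2 (718 normalized counts per kb), Adrbk1 (342), Adra1b (328), Grk5 (163), Arrb2 (122), Arrb1 (113), Adrb1 (99.1), Adrb3 (34.7) and Adra1a (4.67). In control diet atria it was Chrm2 (719), Adrbk1 (311), Adra1b (293), Adrb1 (136), Arrb2 (119), Grk5 (102), Arrb1 (84.9), Adrb3 (11.0) and Adra1a (5.52). Within a diet, the mice of neighboring genes overlapped for Adrbk1 and Adra1b under both diets. They also overlapped for Arrb2 with Arrb1 and Arrb1 with Adrb1 in HFD, and for Adrb1 with Arrb2, Arrb2 with Grk5 and Adrb3 with Adra1a in control diet atria. The receptor gene with the highest level per kb was thus Chrm2 under both diets. With these lengths, Grk5 stood below Adrb1 in control diet atria and above it in HFD atria. The lengths are those of GENCODE M21, where Adrb1 spans 56722199 to 56733113, against 56722372 to 56724862 in the table. Adrb3, Adra1a and Grk5 also reach beyond the table's coordinates there. The exons on which reads were counted may thus be shorter, and the order of these genes depends on the annotation. The plot of levels per kilobase shows the mice behind each mean.

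**Figure D1:**
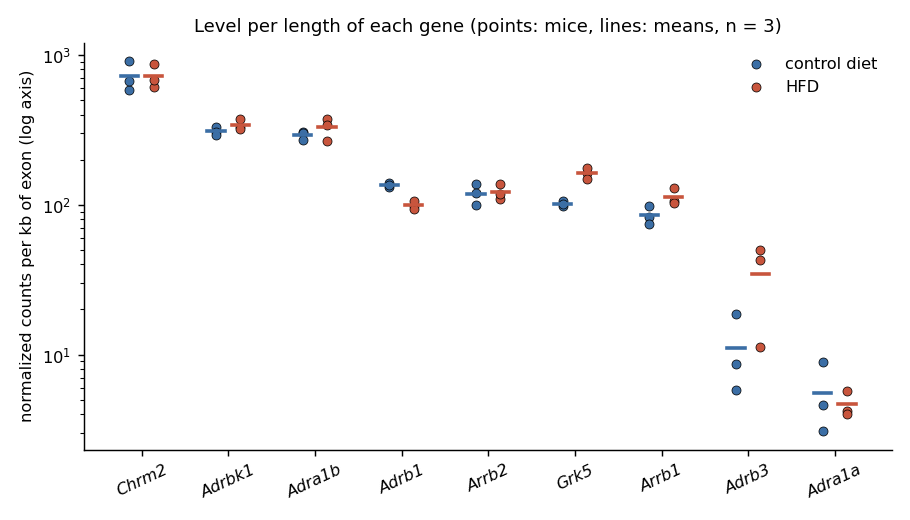
Level of each of the 9 genes in normalized counts per kilobase of exon (log axis), in 3 control diet mice (blue) and 3 HFD mice (red), with lines at the group means. Chrm2 was near 718 in both groups, and Adra1a was under 10 in every mouse.

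Adrb1 encodes the main beta-adrenergic receptor of cardiac myocytes (chr19:56722372-56724862, plus strand, in GRCm38 as the table gives it). Its level was 332, 318 and 356 normalized counts in HFD mice 1 to 3, and 475, 444 and 460.2 in control diet mice 1 to 3. All 3 HFD mice were below all 3 control diet mice. The group means were 335 ± 18.9 (SD, n = 3) and 459.7 ± 15.3, or 72.9% of the control level. In limma the log2 fold change was -0.46 (SE 0.13, 95% interval -0.74 to -0.18), with an unadjusted p of 0.00451 and an adjusted p of 0.144, so the difference did not pass. With 3 mice per group a two-sided exact permutation test cannot go below 0.1, and Adrb1 reached that value.

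Adrb3 encodes the beta3-adrenergic receptor, best known as the receptor that drives lipolysis and thermogenesis in adipocytes (chr8:27225776-27229588, minus strand). It read 169, 37.7 and 145 normalized counts in the HFD mice, and 62.7, 29.4 and 19.7 in the control diet mice. HFD mice 1 and 3 were above every control diet mouse, whereas HFD mouse 2 lay below control diet mouse 1, so the groups overlapped. The means were 117 ± 69.9 (SD, n = 3) and 37.3 ± 22.6, and the log2 fold change was 1.53 (SE 0.57, 95% interval 0.27 to 2.78, adjusted p = 0.304 in limma). DESeq2 on the recovered reads gave 1.66 and an adjusted p of 0.0322, while edgeR gave an adjusted p of 0.251. Leaving out 1 mouse at a time moved the log2 fold change between 1.14 (without HFD mouse 1) and 2.20 (without HFD mouse 2). The table rests on 18 to 168 reads per mouse for Adrb3. Exons of a gene on the opposite strand, Gm45470, overlap those of Adrb3, and whether reads were counted by strand is not given in the sources used here. The same limit holds for Chrm2, whose exons overlap those of 9330158H04Rik on the opposite strand. Arrb2 shares exon bases with Mir7115 on its own strand.

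Genes that mark adipocytes were detected in the same samples. The sum of 6 white adipocyte genes (Adipoq, Lep, Plin1, Cidec, Retn and Cfd) was 3718, 1257 and 1519 normalized counts in the HFD mice and 2747, 1235 and 568 in the control diet mice, with 0 of the 6 passing the test and 5 of 6 above 0. The sum of 4 brown adipocyte genes was 1283, 616 and 1276 in the HFD mice against 330.3, 239 and 187 in the control diet mice, without overlap. Of these 4, Ucp1, the uncoupling protein of brown fat, and Cidea, a lipid droplet protein, rose with log2 fold changes of 4.43 (adjusted p = 0.0446) and 1.21 (adjusted p = 0.0310) in limma. Dio2 did not pass, and Elovl3 was too low to be tested. The 2 HFD mice with the highest brown adipocyte sums, 1 and 3, were also those with the highest Adrb3. Per 1000 counts of the white adipocyte genes, Adrb3 read 45.4, 30.01 and 95.7 in the HFD mice and 22.8, 23.8 and 34.6 in the control diet mice, and the groups overlapped. The ratio of Adrb3 to the brown adipocyte genes, whose sum did separate the diets, was not computed. The white ratio therefore does not give Adrb3 per amount of adipocyte RNA. In bulk tissue, a different number of cells of a type and a different amount of RNA per cell cannot be told apart, and the part of adipocytes in the Adrb3 values was not tested.

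**Figure D2:**
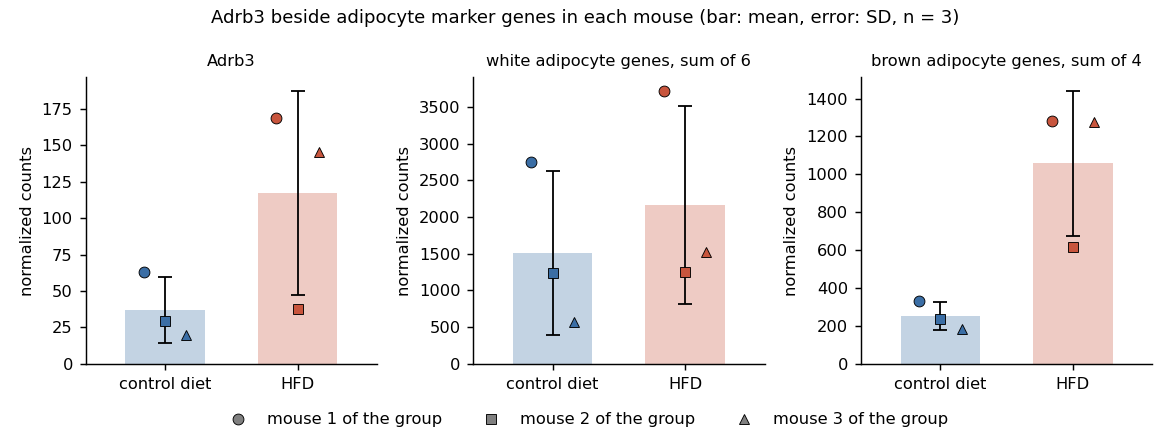
Adrb3, the summed white adipocyte genes and the summed brown adipocyte genes, in normalized counts, for each of the 3 control diet mice (blue) and 3 HFD mice (red), with bars at the mean and error bars of 1 SD. HFD mouse 2 (square) had the lowest level of its group in all 3 panels.

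Adra1a and Adra1b encode alpha1-adrenergic receptors, which couple to Gq and phospholipase C. Adra1b (chr11:43774606-43901210, minus strand) read 1272, 1158 and 898 normalized counts in the HFD mice, and 1033, 1019.7 and 915 in the control diet mice. HFD mouse 3 was the lowest of the 6 and HFD mouse 1 the highest. The diets differed by a log2 fold change of 0.15 (95% interval -0.17 to 0.47, adjusted p = 0.730 in limma). Adra1a (chr14:66635251-66733462, plus strand) was the least abundant member, at 50.2, 36.7 and 35.2 in the HFD mice and 26.9, 77.3 and 40.4 in the control diet mice. Its highest and its lowest value both came from control diet mice. A log2 fold change of -0.12 (SE 0.40, adjusted p = 0.938 in limma) turned to 0.28 without control diet mouse 2. The 95% interval covers levels from 0.499 to 1.69 times that of the control diet, and it rests on 24 to 113 reads of Adra1a per mouse.

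Chrm2 (chr6:36388084-36528414, plus strand) had the highest level of the 9 genes and the smallest difference between the diets. It read 3719, 5237 and 4091 normalized counts in the HFD mice, and 3545, 4026 and 5494 in the control diet mice. The spread within each diet was far wider than the distance between their means, 4349 ± 791 (SD, n = 3) and 4355 ± 1015. The log2 fold change was 0.01 (95% interval -0.39 to 0.40, adjusted p = 0.993 in limma), and its sign depended on the scaling and on which mouse was left out.

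Among the kinases, Grk5 (chr19:60889749-61092553, plus strand) was the gene that passed. GRK5 is a membrane-associated kinase of cardiac myocytes that phosphorylates agonist-occupied receptors and can also enter the nucleus. Its level was 1141, 1246 and 1053 normalized counts in the HFD mice, and 694, 743 and 717 in the control diet mice. Every HFD mouse lay above every control diet mouse. The means were 1147 ± 96.8 (SD, n = 3) and 718 ± 24.2, and the log2 fold change was 0.67 (SE 0.12, 95% interval 0.42 to 0.93), with an adjusted p of 0.0310 in limma, rank 69 of the 15275 genes by p. The adjusted p was 0.0389 in edgeR and 0.000171 in DESeq2, and 0.177 in limma without a variance trend. With 1 mouse left out at a time, the log2 fold change stayed between 0.61 and 0.73, but the adjusted p was under 0.05 in 1 of the 6 fits (0.0129, without HFD mouse 3) and between 0.0862 and 0.128 in the other 5. The study had itself selected Grk5 on these samples for a display of pathway genes, so its direction here is not independent evidence.

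Adrbk1 (chr19:4286001-4306222, minus strand), which encodes GRK2, the kinase recruited to active receptors by free G protein beta-gamma subunits, read 1486, 1442 and 1663 normalized counts in the HFD mice and 1480.2, 1375 and 1315 in the control diet mice. The groups overlapped, since HFD mouse 2 was below control diet mouse 1. This gave a log2 fold change of 0.14 (95% interval -0.11 to 0.39, adjusted p = 0.680 in limma). Within each mouse, the ratio of Grk5 to Adrbk1 was 0.768, 0.864 and 0.633 in HFD and 0.469, 0.540 and 0.546 in control diet atria. All 3 HFD ratios were higher, by 0.53 on the log2 scale, with p = 0.1 in a two-sided exact permutation test, which is the smallest p this design allows (0.375 after adjustment over 5 pairs of members).

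Of the 3 other GRKs with a mean of at least 10, none passed in limma. Adrbk2, the close relative of Adrbk1 also called Grk3, read 759, 1151 and 993 normalized counts in the HFD mice and 717, 654 and 904 in the control diet mice (log2 fold change 0.34, adjusted p = 0.472). Grk6 and Grk4, of the same subfamily as Grk5, had log2 fold changes of 0.10 (adjusted p = 0.821) and -0.20 (adjusted p = 0.872). The visual kinase gene Grk1 and the visual arrestin genes Sag and Arr3 had means under 10 and were not tested.

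Arrb1 and Arrb2 encode beta-arrestin 1 and beta-arrestin 2. Arrb1 (chr7:99535466-99606771, plus strand) read 1192, 1451 and 1153 normalized counts in the HFD mice, and 925, 827 and 1095 in the control diet mice. The groups did not overlap, although HFD mouse 3 and control diet mouse 3 were close. The means were 1265 ± 162 (SD, n = 3) and 949 ± 136. In limma this was a log2 fold change of 0.42 (SE 0.14, 95% interval 0.10 to 0.73), with an unadjusted p of 0.0141 and an adjusted p of 0.250, so Arrb1 did not pass. Arrb2 (chr11:70432635-70440828, plus strand) read 310.4, 338 and 394 in the HFD mice and 389.6, 340.1 and 283 in the control diet mice. The values of the diets interleaved, with a log2 fold change of 0.05 (95% interval -0.32 to 0.41, adjusted p = 0.947 in limma). The ratio of Arrb1 to Arrb2 within a mouse overlapped between the diets (log2 difference 0.37, exact permutation p = 0.3, 0.375 after adjustment), so the 2 arrestins were not shown to differ in their response.

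**Figure D3:**
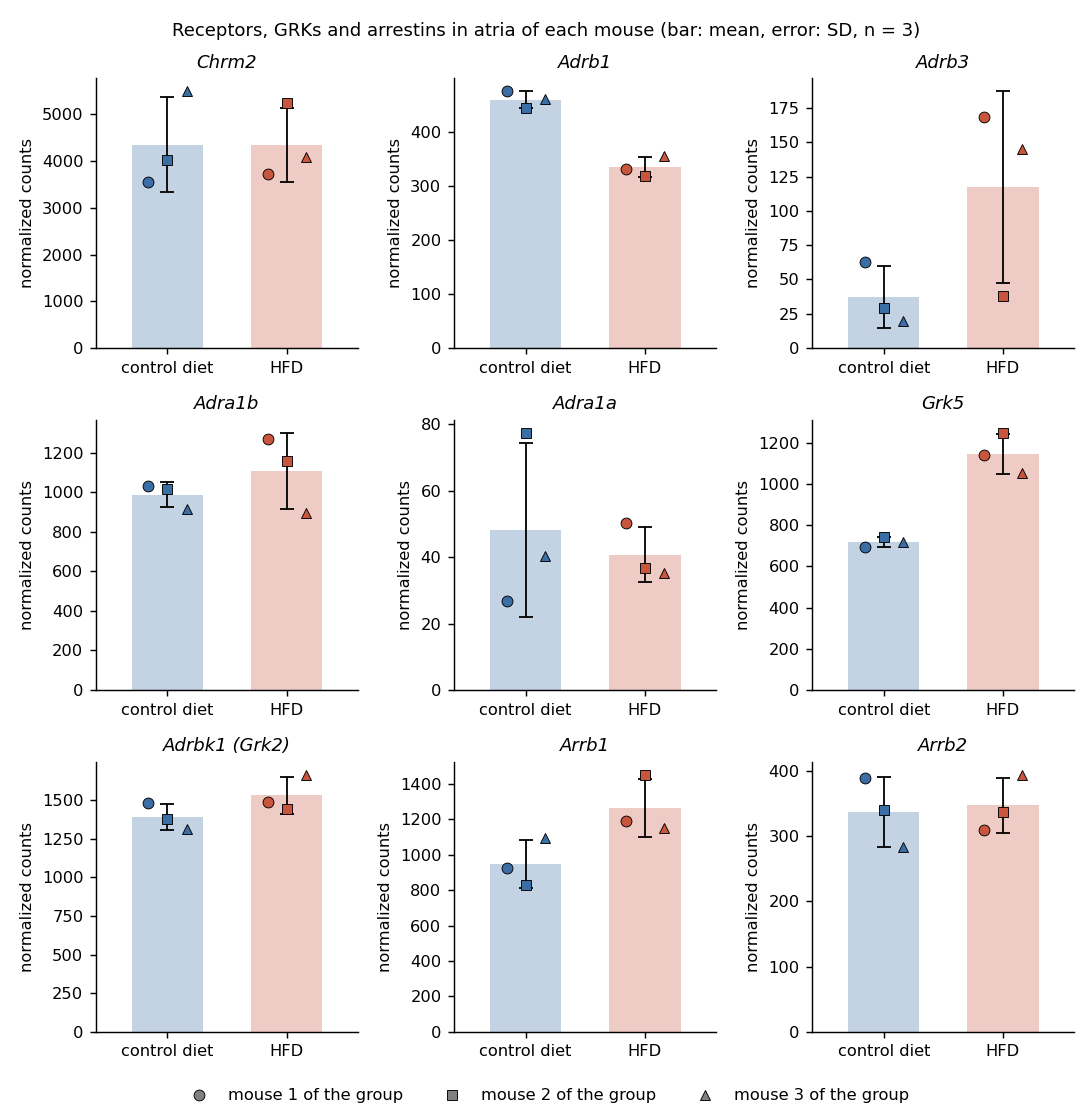
Normalized counts of the 9 genes in each of the 3 control diet mice (blue) and 3 HFD mice (red), with bars at the mean and error bars of 1 SD, each panel with its own axis from 0. The groups are separate for Grk5, Arrb1 and Adrb1 and overlap for the other 6 genes.

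The remaining ratios within a mouse also overlapped between the diets. The ratio of Adrb1 to Chrm2, the main beta-adrenergic receptor gene against the vagal receptor gene, differed by -0.46 on the log2 scale (HFD minus control, exact permutation p = 0.3). That of Adrb3 to Adrb1 differed by 1.98 (exact permutation p = 0.2) and that of Adra1a to Adra1b by -0.28 (exact permutation p = 0.7). Their adjusted values were 0.375, 0.375 and 0.7.

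**Figure D4:**
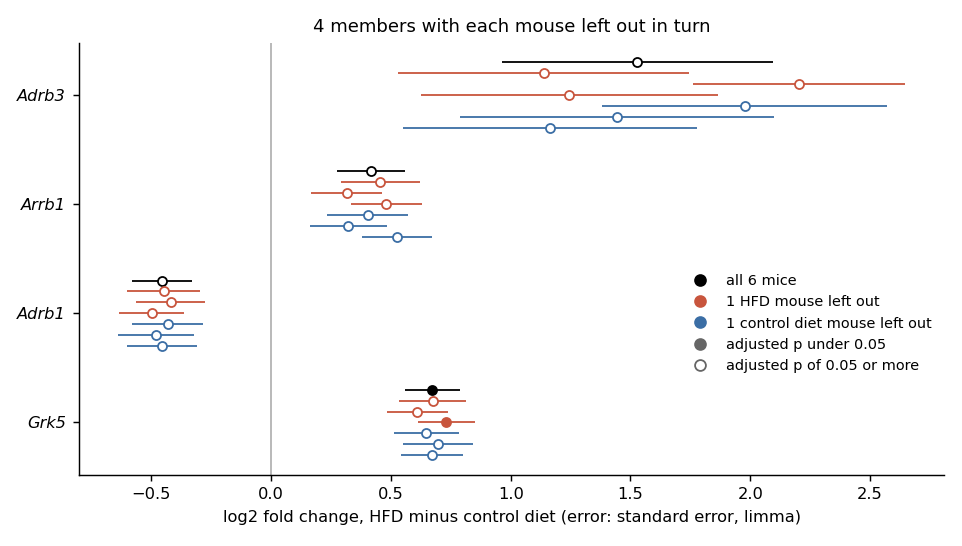
Log2 fold changes (HFD minus control diet, limma) of the 4 members with an unadjusted p under 0.05, from all 6 mice (black) and with each HFD mouse (red) or control diet mouse (blue) left out, with standard errors as lines and filled points for an adjusted p under 0.05. All 6 values of Grk5 without 1 mouse lie between 0.61 and 0.73, and 1 of them is filled.

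The genes whose 6 values ran closest to those of Grk5 were Msr1, Slc30a1 and Uhrf1bp1l among 15274 genes. Likeness was the root mean square difference of log2 values centered on each gene's own mean, and it was 0.0672, 0.0713 and 0.0795. Their log2 fold changes were 0.68 (adjusted p = 0.110), 0.63 (adjusted p = 0.0873) and 0.81 (adjusted p = 0.0234) in limma.

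The remaining receptors of both families were scarce. Of 8 such genes, 3 could be tested and none passed: Adra1d (log2 fold change -0.14, adjusted p = 0.876), Adra2b (-0.09, adjusted p = 0.976) and Chrm3 (-0.49, adjusted p = 0.574). Adra2a, Adra2c, Chrm1 and Chrm4 had means under 10, and Chrm5 was at 0 in all 6 mice, where 3 reads would be 2.05 to 3.41 normalized counts.

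**Figure D5:**
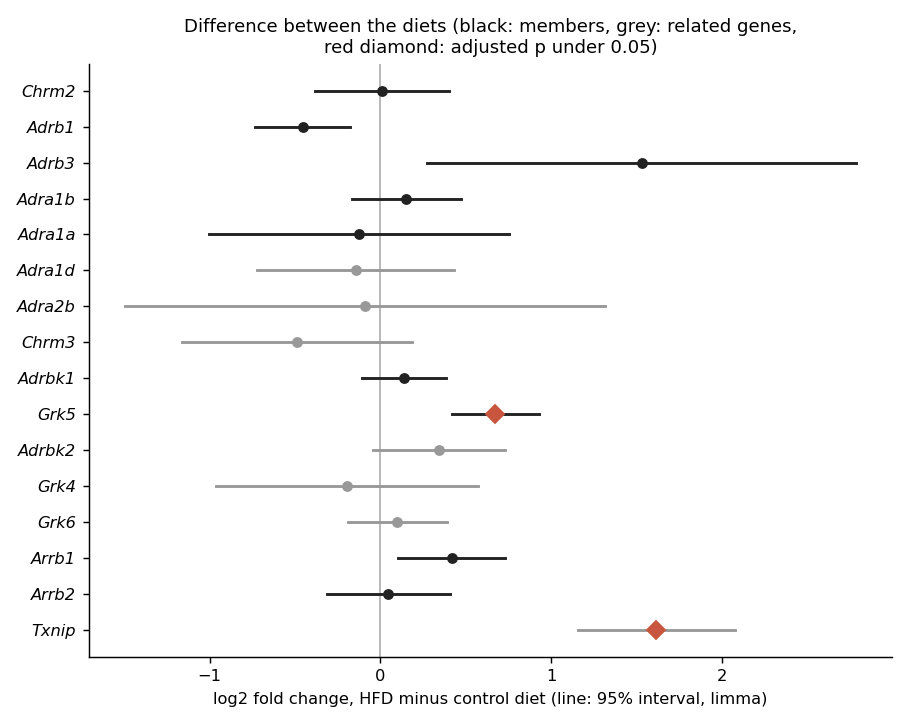
Log2 fold changes (HFD minus control diet) with 95% intervals from limma, for the 9 members (black), the related receptor and GRK genes that could be tested (grey) and Txnip (grey line). Red diamonds mark the 2 genes with an adjusted p under 0.05, Grk5 and Txnip.

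The pathway around the 9 genes was described with 10 lists holding 140 genes, of which 120 were tested. In these lists 1 gene passed in limma, in the higher direction, against 0.484% of all genes tested. That gene was Txnip, an alpha-arrestin, a family that shares the arrestin fold. Txnip itself is known for its part in glucose uptake. It read 20129, 22435 and 12289 normalized counts in the HFD mice and 5430.4, 5256 and 6745 in the control diet mice, without overlap. Its log2 fold change was 1.62 (SE 0.21, 95% interval 1.16 to 2.08, adjusted p = 0.00937), and the adjusted p stayed under 0.05 in 4 of the 6 fits with 1 mouse left out, the exceptions being those without control diet mouse 1 (0.0508) and mouse 2 (0.0689). In the list of receptor trafficking and alpha-arrestin genes, 10 of 13 log2 fold changes were above 0, against 50.8% of all genes tested, with a median of 0.18. Of the 13, 4 were higher and 0 lower with an unadjusted p under 0.05 in limma, Txnip among them, against 6.66% and 5.55% of all genes tested. None of the 12 others passed.

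Among the genes between receptor and cAMP, no gene passed in limma. The counts at an unadjusted p under 0.05 given for each list stand against 6.66% (higher) and 5.55% (lower) of all genes tested, and no list was tested as a set. Of 25 heterotrimeric G protein genes tested, 2 were higher and 4 lower with an unadjusted p under 0.05 (median log2 fold change -0.12). The lowest p values were those of Gna12 (0.53, adjusted p = 0.0911) and Gnb3 (-1.42, adjusted p = 0.158). Of 14 RGS genes, which encode proteins that speed the shutoff of G proteins, 1 was lower before adjustment (median -0.10), namely Rgs12 (-0.63, adjusted p = 0.0993), followed by Rgs17 (-0.44, adjusted p = 0.499). Of 7 adenylyl cyclase genes, which encode the enzymes that make cAMP, 2 were higher before adjustment (median 0.18). Adcy6, with Adcy5 a main cyclase of the heart, read 4749.6, 6894 and 5717 normalized counts in the HFD mice against 3534, 3606 and 4077 in the control diet mice (log2 fold change 0.62, adjusted p = 0.0862), and Adcy4 showed the same size of difference, 0.62 (adjusted p = 0.115). Of 15 phosphodiesterase genes, whose products break cAMP down, 3 were higher before adjustment (median 0.22), led by Pde7a (0.69, adjusted p = 0.117) and Pde4b (0.37, adjusted p = 0.170). Of 11 genes of protein kinase A and Epac, 1 was higher and 1 lower before adjustment (median -0.02). These were the regulatory subunit gene Prkar2b (2.46-fold, adjusted p = 0.124) and the catalytic subunit gene Prkaca (0.790-fold, adjusted p = 0.244).

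Of 14 effector genes, 1 was higher and 4 were lower before adjustment (median 0.001), and none passed in limma. Kcnj3, a subunit of the potassium channel that the M2 receptor opens, read 6166, 6995 and 4727 normalized counts in the HFD mice and 8159, 9434 and 11565 in the control diet mice, with all HFD mice lower (log2 fold change -0.71, 95% interval -1.09 to -0.33, adjusted p = 0.0954). Pln, which encodes the phospholamban that beta-adrenergic signaling phosphorylates, differed by -0.69 on the log2 scale (adjusted p = 0.110). Of 15 genes of transmitter synthesis, uptake and breakdown, 2 were lower before adjustment (median -0.31). Dbh, the enzyme that makes norepinephrine, read 57.3, 77.5 and 149 in the HFD mice and 241, 168 and 272 in the control diet mice (log2 fold change -1.34, adjusted p = 0.0985), and the norepinephrine transporter gene Slc6a2 differed by -1.15 on that scale (adjusted p = 0.385). With DESeq2 on the recovered reads, 11 genes of the 10 lists passed, against 3.34% of all genes. Besides Txnip these included Pln (adjusted p = 0.00151), Kcnj3 (0.00254), Adcy6 (0.00254), Dbh (0.00619), Prkar2b (0.00746), Gna12 (0.00785), Pde7a (0.00887), Rgs12 (0.0114) and Adcy4 (0.0186), in the same directions as in limma. The sum of 6 neuron genes ranged from 174 to 965 normalized counts in HFD and from 149.7 to 605 in control diet atria, overlapping between the diets.

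All 6 samples carried the markers of atrial muscle. Reads on genes numbered 15874251 to 28971508 per sample, deepest in control diet mouse 2, which also had the highest share of mitochondrial reads (30.7%, against 19.5% to 24.4% in the other 5) and the highest sum of 4 ventricular myocyte genes (17399 normalized counts, against 6882 to 9866). The sum of 5 atrial myocyte genes was 285064 and 285797 in HFD mice 1 and 2 and 518575 in HFD mouse 3. In the control diet mice it was 440112 to 480118. Of these 5 genes, 1 had a log2 fold change above 0. Myl7 (-0.66, adjusted p = 0.317 in limma) and Sln (-0.32, adjusted p = 0.352) were lower before adjustment, as for 5.55% of all genes tested. Of the 4 ventricular genes, 0 were above 0, and Myh7 (-0.41, adjusted p = 0.334) was lower before adjustment. None of these myocyte genes passed. The part of such differences in the levels of the 9 genes was not tested. Grk5, Arrb1 and Adrb1 kept their directions without HFD mouse 3 and without control diet mouse 2. These fits do not test that part. Without HFD mouse 3, the HFD group holds only mice 1 and 2, which had the lowest atrial sums. The summed markers of endothelium, of leukocytes and of smooth muscle and pericytes also separated the diets, as Grk5 did. Those of 5 fibroblast genes overlapped (31294 to 32698 normalized counts in HFD, 31128 to 36489 in control diet atria). How often such sums separate was not tested. The sum of 5 endothelial genes was 14396, 15398 and 14087 normalized counts in the HFD mice and 11802, 12235 and 12280.3 in the control diet mice, without overlap. All 5 log2 fold changes were above 0 and none passed, with Pecam1 closest at 0.57 (adjusted p = 0.0504 in limma) and without overlap, as was Tie1. Cdh5, Kdr and Emcn overlapped between the diets. Pecam1 averaged 5917 normalized counts in HFD and 3989 in control diet atria, so much of the difference in the sum lay in this gene. The sum of 8 leukocyte genes was 6952, 5541 and 6373 in the HFD mice and 5438, 5044 and 4021 in the control diet mice, also without overlap. Of these 8, 5 were tested and all 5 were above 0. Itgam rose (log2 fold change 1.18, adjusted p = 0.0106), Lyz2 had an unadjusted p under 0.05 (adjusted p = 0.378) and Cd68 did not overlap between the diets (adjusted p = 0.465). Of the 5 tested, Ptprc, Lyz2 and Emr1 overlapped. Lyz2 averaged 4962 normalized counts in HFD and 3894 in control diet atria, so most of the leukocyte sum lay in this gene. The 5 smooth muscle and pericyte genes summed to 11423, 11166 and 10785 in the HFD mice. In the control diet mice they summed to 10485, 9022 and 9274, without overlap. Of these 5, 4 log2 fold changes were above 0 (median 0.37), against 50.8% of all genes tested, and each gene overlapped between the diets. The part of these cells in the level of Grk5 was not tested. None of the 5 fibroblast genes and the 5 smooth muscle and pericyte genes passed in limma.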

How the data were processed

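Total RNA from atria of 3 HFD mice and 3 control diet mice was extracted (with an RNeasy kit per the labels, after lysis in TRIzol per the study's methods), made into directional libraries and sequenced as single-end reads of 50 bases by the authors. Per the study's methods, reads were aligned to GRCm38 with STAR, uniquely mapped reads were assigned to Ensembl genes with Salmon, and groups were compared with DESeq2. The deposited signal is the read count of each gene divided by 1 DESeq2 size factor per sample, called the normalized count here. The deposited table also holds the authors' own comparison (log2 fold changes with their errors, p-values, adjusted p-values, and 2 scores, the Wald statistic and a ranking metric), and none of these columns was used.

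Groups followed the sample titles. The smallest positive value of a sample stands for 1 read, so division by it returned the reads, and 100% of the values came out whole (tolerance 0.01). Depth was 15874251 to 28971508 reads on genes per sample, and the floor was set at 3 reads. Counting error is only part of the error, since PCR copies were not removed by molecular identifiers. The 1 row that names no gene was left out.

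The 15275 genes with a mean of at least 10 were tested two-sided with lmFit and eBayes (trend = TRUE) of limma 3.58.1, under R 4.3.3, on log2(normalized count + 1), without covariates, with Benjamini-Hochberg adjustment over all of them and a threshold of 0.05. On this scale, changes of low genes are understated. Fold changes with 95% intervals are from that fit. Ratios within a mouse were compared with two-sided exact permutation tests. Alternatives were edgeR 4.0.16 and DESeq2 1.42.0 on the recovered reads, quantile and TMM scaling, no variance trend, a pseudocount of 0.1, other filters, a block by replicate number, and each mouse left out. The fits were tested on simulated data. Each numbered sample is called a mouse here. The labels do not state that the samples of a group are separate animals, so p-values measure only the spread between these samples, which may be technical. Samples of the same group differed by a chi-square per gene of 15.4 to 55.2 in reads, which is more than counting error.

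Gene names were matched without regard to case, and 187 of 187 distinct list genes were found. Coordinates are those of the table (GRCm38), and exon lengths and overlaps come from GENCODE M21 on the same build. Promoter sequences are from RefSeq (GRCm38.p6).

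The 9 members and all gene lists were chosen with earlier results of these data known. From the lists, the text names every gene with an adjusted p under 0.05, or where there was none the 2 with the lowest p, every related receptor, GRK and arrestin gene, and the 3 genes most like the member with the lowest p. Adipocyte, endothelial, leukocyte and myocyte markers are named as well, chosen after their values were seen.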

Additional observations from a re-analysis of the deposited data

How the results depend on the processing

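Among the 9 members, 1 passed in limma. The number was 0 without the variance trend and 2 with DESeq2 (Grk5 and Adrb3), and 0 to 1 with each mouse left out, the call being kept without HFD mouse 3. Over all genes it was 0 without the variance trend, 87 with edgeR, 470 with DESeq2 and 14 to 318 with each mouse left out, against 114. At an unadjusted p under 0.05, limma gave 1717 genes without the variance trend, against 1864 with it. In the 10 pathway lists it was 0 without the variance trend, 11 with DESeq2, 4 with the replicate block and 0 to 5 with each mouse left out, against 1. The cause of these shifts was not tested.

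The log2 fold change of Chrm2 turned to -0.0205 with quantile scaling, -0.0037 with edgeR and -0.0019 with DESeq2, and ranged from -0.13 to 0.19 with each mouse left out. Adra2b turned to 0.13 with edgeR and 0.14 with DESeq2, and ranged from -0.69 to 0.36 with each mouse left out. The signs of Adra1a (-0.47 to 0.28), Arrb2 (-0.075 to 0.16), Adra1d (-0.28 to 0.045) and Grk4 (-0.44 to 0.059) also turned when 1 mouse was left out, as did the ratio of Adra1a to Adra1b (-0.65 to 0.10). Of 135 pairs of a member and an alternative, 119 kept direction and side of the threshold, 6 lost and 1 gained the adjusted call, and 9 turned sign. The median of all genes stayed between -0.02 and 0.01 under every scaling.

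The replicate numbers name separate samples, and the deviations of same-numbered samples correlated at 0.116, -0.027 and -0.0039, so the numbers were not taken to pair them. With the number as a replicate block, 157 genes passed, among them Grk5 (adjusted p = 0.0472) and no other member. Prkar2b (adjusted p = 0.0154) and Dbh (0.0401) passed with it as well. Adra1a rests on 24 to 113 and Adrb3 on 18 to 168 reads per mouse.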
